A study of Mus musculus with 15 samples.

Results

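The genes described here encode the Trem2 receptor complex, the signalling proteins that act after it and the proteases that cut the receptor from the cell surface. They are 10 of the 54390 genes in each count table and were taken by symbol: Trem2, Tyrobp, Hcst, Syk, Plcg2, Lat2, Vav1, Inpp5d, Adam10 and Adam17. All 10 passed the filter on low counts. RNA was sequenced from BV2 cells, an immortalised line of mouse microglia, in 15 libraries. The groups were WT non-foamy cells (n = 4), WT foamy cells that had received 20 µg per ml cholesterol overnight (n = 4), Trem2KO non-foamy cells (n = 3) and Trem2KO foamy cells with the same cholesterol (n = 4). Trem2KO (Trem2-/-) cells were grown from individual clones after a guide against Trem2 was put into a single Cas9-expressing BV2 clone. The sources used here do not say whether WT cells came from that clone, and the labels do not give the clone of each library, so loss of Trem2 and a difference between clones cannot be told apart here.

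Trem2 is a surface receptor of microglia and other macrophages that binds lipids, lipoproteins and anionic ligands. It has almost no signalling tail of its own and pairs in the membrane with the adaptors DAP12 (gene Tyrobp) and DAP10 (gene Hcst). When the paired tyrosines of the DAP12 motif are phosphorylated, the kinase Syk docks on them and activates Lat2, Vav1 and phospholipase C gamma 2 (gene Plcg2), whereas the DAP10 motif recruits PI3 kinase. The lipid phosphatase SHIP1 (gene Inpp5d) restrains the pathway, and Adam10 and Adam17 release the receptor's outer part as soluble Trem2.

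The docking motifs of both adaptors are shown because they are the point at which the receptor meets the kinases measured below. They were read from the annotated coding transcripts (GENCODE M21, GRCm38), and capitals mark the tyrosine codons. The Tyrobp stretch covers bases 274 to 318 of a reading frame of 345 bases in transcript Tyrobp-202, and the Hcst stretch covers bases 214 to 225 of a frame of 240 bases in Hcst-201.
Tyrobp: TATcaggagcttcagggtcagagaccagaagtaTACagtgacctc
Hcst: TACatcaacatg
The Tyrobp stretch holds 2 tyrosine codons, each followed after 2 codons by a leucine codon, which is the layout of an immunoreceptor tyrosine-based activation motif. The Hcst stretch holds 1 tyrosine codon followed after 2 codons by a methionine codon, the layout bound by the regulatory subunit of PI3 kinase. Both genes lie side by side on chromosome 7 of GRCm38. Tyrobp runs forward at chr7:30413760-30417585, Hcst runs in reverse at chr7:30417712-30419854, and 126 bases separate them with no exonic overlap in the annotation.

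Sequence before the start site is shown for Hcst, Inpp5d and Vav1 because these are the genes of the complex in which the ETS core AGGAAGT was found within 250 bases before the start, and for Trem2 as the targeted gene. Promoters came from RefSeq (GRCm38.p6), and 8 of the 10 genes had an entry. Each line gives the 60 bases before the start site on the gene's own strand, with AGGAAGT in capitals.
Trem2, chr17:48346341-48346400, forward: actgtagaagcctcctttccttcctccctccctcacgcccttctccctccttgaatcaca
Hcst, chr7:30419855-30419914, reverse: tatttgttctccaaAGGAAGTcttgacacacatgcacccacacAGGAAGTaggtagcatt
Vav1, chr17:57279040-57279099, forward: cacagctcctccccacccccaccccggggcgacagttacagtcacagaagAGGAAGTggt
Inpp5d, chr1:87620252-87620311, forward: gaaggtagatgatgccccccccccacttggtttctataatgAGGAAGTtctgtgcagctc
Both strands were searched. AGGAAGT occurred in 3 of the 8 genes and in 7.69% of 32851 promoters of the same length. The longer PU.1 form GAGGAAGT, which contains AGGAAGT, occurred in Inpp5d and Vav1 and in 2.44% of all promoters. TCACGTG, the core of the CLEAR element of lysosomal genes, occurred in Adam10 and Plcg2 and in 3.13% of all promoters. TCACNCCAC, a sterol response element, occurred in none of the 8 and in 1.05% of all promoters. Spi1, which encodes PU.1, was counted at 87.3 to 108 CPM (read counts scaled to the size of the library) over the 15 libraries. A match is a description of these letters and not of a bound site.

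Libraries held 23538963 to 41683825 counted reads, and 14237 genes were tested. All 7 macrophage markers were expressed in every library. Among markers of homeostatic microglia, Sall1 was at 0 in all libraries, while Tmem119 (at most 0.728 CPM), P2ry12 (at most 2.46 CPM) and Cx3cr1 (at most 1.96 CPM) were near 0. Summed macrophage markers were higher in Trem2KO libraries (2902 to 3097 CPM) than in WT libraries (2109 to 2468 CPM), and the part of this difference in the results below was not tested. The neuronal markers summed to at most 0.348 CPM, and the fibroblast markers Col1a1, Col1a2 and Pdgfra were at 0. WT non-foamy replicate 3, which had the fewest reads, was the highest or lowest library of its group for 10 of the 10 genes. Relative to the mean of all libraries, its counts fell with exonic length by 0.085 on the log2 scale per doubling. WT foamy replicate 1 was an extreme for 9 of the 10 genes with a slope of 0.097 per doubling, and the other 13 libraries lay between -0.043 and 0.048. Trem2KO non-foamy replicate 2 was also an extreme for 9 of the 10 genes, the lowest of its 3 for 8 of them, and WT non-foamy replicate 4 for 8.

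Expressed per length, the complex was led by its adaptor DAP12. CPM per kb of the longest coding transcript is used here to compare genes, because most of the annotated exonic length of Trem2 belongs to a retained-intron transcript of 4784 bases, whereas the coding transcript Trem2-201 has 1088 bases. In WT non-foamy cells Tyrobp stood at 2069 ± 389 CPM per kb (SD, n = 4), ahead of Trem2 at 325 ± 37.9, Lat2 at 75.6 ± 5.93 and Adam17 at 55.5 ± 2.88. By this measure, these first 4 genes kept this order in all 4 groups, and neighbours in it did not overlap in any group. Plcg2 followed at 32.3 ± 5.03 CPM per kb, then Vav1 at 22.6 ± 2.66, Adam10 at 20.2 ± 1.40, Inpp5d at 15.03 ± 1.54, Syk at 13.99 ± 1.12 and Hcst at 11.1 ± 3.61. In this lower part the ranges over libraries overlapped between Plcg2 and Vav1, Vav1 and Adam10, Inpp5d and Syk, and Syk and Hcst. Within each of the 4 libraries, however, Plcg2 stood above Vav1, Vav1 above Adam10 and Inpp5d above Syk, while Syk stood above Hcst in 3 of the 4. Syk and Inpp5d changed places in Trem2KO cells. Syk stood at 19.6 ± 0.452 CPM per kb and Inpp5d at 16.6 ± 0.550 in Trem2KO non-foamy cells (n = 3), without overlap between libraries. The order of the first 4 genes depended on the length used. Per kb of full annotated exonic length, it held in WT cells, but Lat2 stood above Trem2 in Trem2KO cells. Means were 62.6 against 44.9 CPM per kb in non-foamy and 62.3 against 45.4 in foamy cells. Adam17, at 45.1 and 43.97, was about level with Trem2 there. The lower part of the order also depended on the length. Per kb of full exonic length, mean Adam10 (18.9) stood above mean Vav1 (18.2) in WT non-foamy cells. By that length, Syk (10.9 to 11.4) and Inpp5d (10.5 to 11.2) overlapped between Trem2KO non-foamy libraries.

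**Figure D1:**
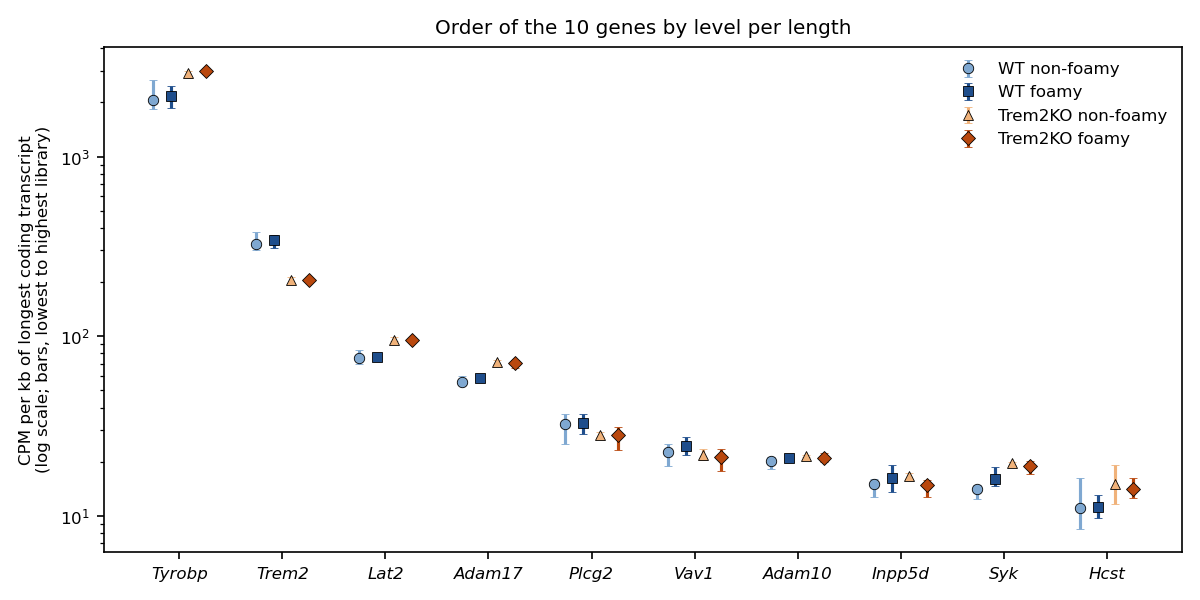
CPM per kb of the longest coding transcript, on a log scale, for the 10 genes in order of their WT non-foamy level; symbols are group means and bars run from the lowest to the highest library (n = 4, 4, 3 and 4). By this measure, Tyrobp and Trem2 lead in every group and stand further apart in Trem2KO than in WT cells.

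Trem2 RNA was lower in Trem2KO cells but was not lost. Trem2 lies on the forward strand at chr17:48346401-48354147 (GRCm38). It was counted at 329, 345, 415 and 327 CPM in the 4 WT non-foamy libraries and at 337, 372, 399.6 and 383 CPM in the 4 WT foamy libraries. In Trem2KO cells it stood at 232, 214 and 220.5 CPM in the non-foamy libraries and at 227, 227, 218 and 226 CPM in the foamy libraries. Every Trem2KO library lay below every WT library. Relative to WT, Trem2KO cells had a log2 fold change of -0.67 (s.e. 0.08, edgeR quasi-likelihood test, adjusted p = 2.85e-07) in non-foamy and -0.73 (s.e. 0.07, edgeR adjusted p = 7.09e-08) in foamy cells. Without WT non-foamy replicate 3, the highest library, the first value was -0.59. Counts per gene do not separate edited from intact transcripts, and in bulk samples fewer cells with a transcript and less of it per cell cannot be told apart. The paper reports that knockout of Trem2 protein was checked by flow cytometry after cholesterol treatment, whereas RNA was counted here. Treml1, the neighbouring gene 5768 bases away, stood at about 1 CPM (0.660 to 1.86) and was not called in either comparison.

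**Figure D2:**
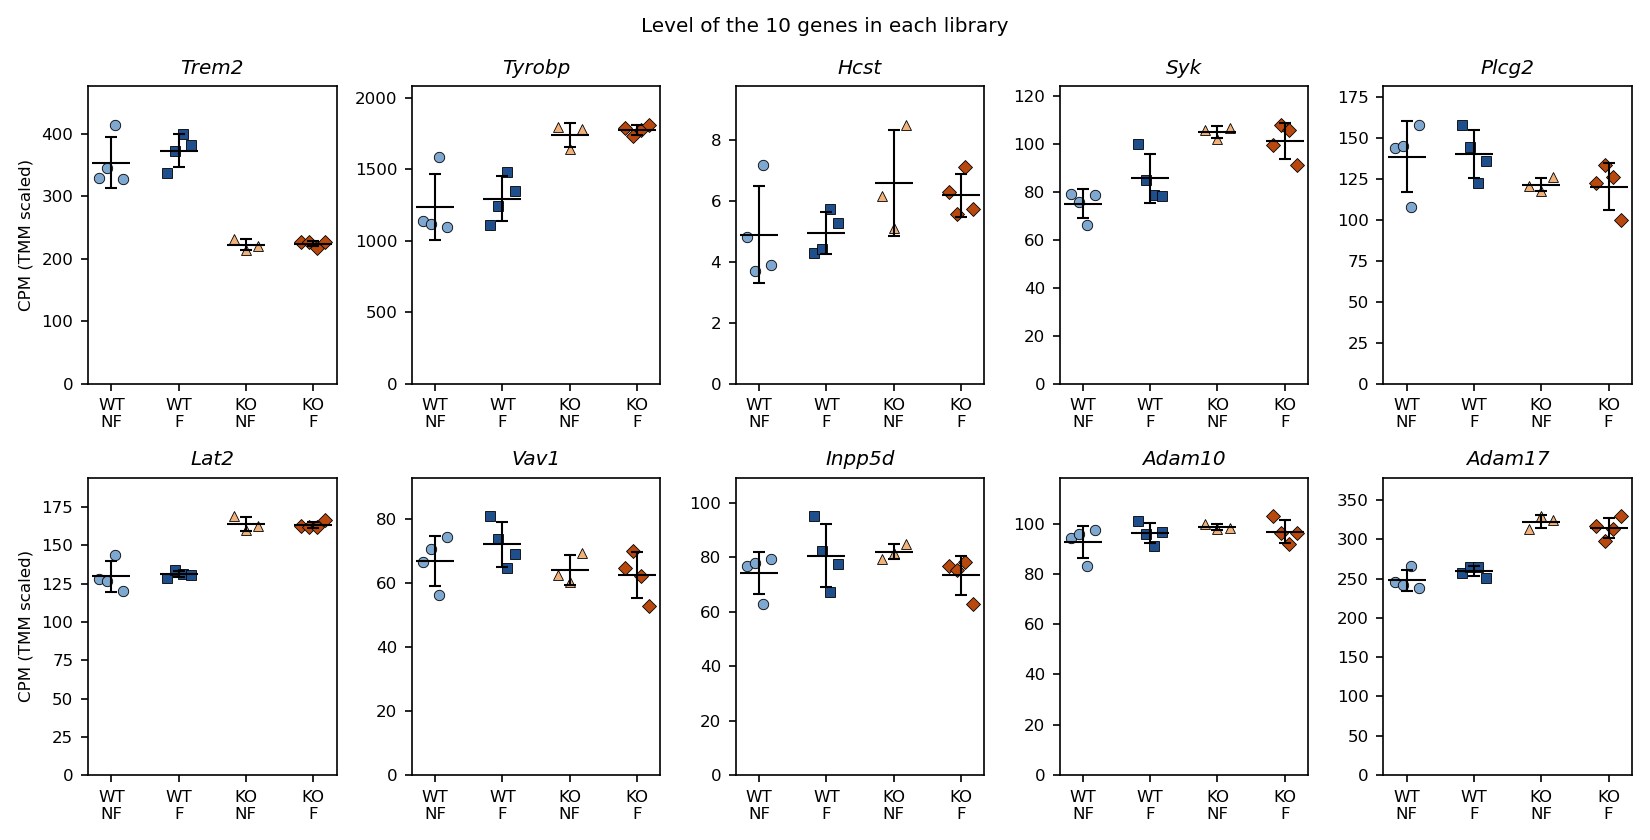
CPM after TMM scaling of the 10 genes in each of the 15 libraries, from 0, by group (NF, non-foamy; F, foamy; KO, Trem2KO); points are libraries and bars give mean and SD. Trem2 is lower and Tyrobp, Lat2 and Adam17 are higher in every Trem2KO library than in the WT libraries of either treatment.

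Tyrobp, the adaptor that carries the activation motif printed above, was higher in Trem2KO cells. It was counted at 1140.3, 1118, 1582.5 and 1099 CPM in WT non-foamy libraries and at 1107, 1243, 1483 and 1345 CPM in WT foamy libraries. In Trem2KO cells it stood at 1797, 1640.5 and 1782 CPM without and at 1791, 1730.1, 1773 and 1811 CPM with cholesterol. No Trem2KO library reached down to a WT library, although WT non-foamy replicate 3 stood far above its own group. The log2 fold change was 0.49 (s.e. 0.11, edgeR adjusted p = 0.00052) in non-foamy and 0.46 (s.e. 0.10, edgeR adjusted p = 0.00108) in foamy cells, and the first value was 0.64 (edgeR adjusted p = 3.09e-07) without that library.

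Hcst, the adaptor with the PI3 kinase motif, was the least abundant gene of the complex, with 115 to 257 reads per library. It was counted at 4.82, 3.70, 7.17 and 3.88 CPM in WT non-foamy, 4.30, 4.43, 5.75 and 5.29 CPM in WT foamy, 6.16, 5.12 and 8.51 CPM in Trem2KO non-foamy and 6.31, 5.57, 7.12 and 5.76 CPM in Trem2KO foamy libraries. The ranges of WT and Trem2KO overlapped under both treatments. The log2 fold change was 0.45 (s.e. 0.20, edgeR adjusted p = 0.0714) in non-foamy and 0.33 (s.e. 0.18, edgeR adjusted p = 0.191) in foamy cells. The non-foamy value passed the threshold without WT non-foamy replicate 3 (0.67, edgeR adjusted p = 0.00354) or without Trem2KO non-foamy replicate 2 (0.60, edgeR adjusted p = 0.0316), and fell to 0.23 (edgeR adjusted p = 0.433) without Trem2KO non-foamy replicate 3.

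Syk, the kinase that docks on the DAP12 motif, was higher in Trem2KO non-foamy cells. The gene lies on the forward strand at chr13:52583173-52648792. It was counted at 79.2, 75.9, 66.3 and 78.8 CPM in WT non-foamy libraries and at 106, 102.2 and 107 CPM in Trem2KO non-foamy libraries, without overlap. With cholesterol it stood at 100.2, 85.2, 78.7 and 78.4 CPM in WT and at 99.7, 108, 106 and 91.4 CPM in Trem2KO libraries, where WT foamy replicate 1 lay among the Trem2KO libraries. The log2 fold change was 0.48 (s.e. 0.08, edgeR adjusted p = 5.69e-05) in non-foamy and 0.24 (s.e. 0.08, edgeR adjusted p = 0.0207) in foamy cells. The foamy call was lost without WT foamy replicate 3 (0.20, edgeR adjusted p = 0.0767), WT foamy replicate 4 (0.20, adjusted p = 0.0787), Trem2KO foamy replicate 2 (0.21, adjusted p = 0.0660) or Trem2KO foamy replicate 3 (0.22, adjusted p = 0.0603), and when libraries were scaled by total counts alone (0.11, adjusted p = 0.462).

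Of the proteins that act after Syk, Lat2 was higher in Trem2KO cells under both treatments, whereas Plcg2 and Vav1 were not called. Lat2 encodes a membrane adaptor that gathers signalling proteins after phosphorylation. It was counted at 128, 127, 144 and 120.1 CPM in WT non-foamy and at 129, 134, 132 and 131 CPM in WT foamy libraries. In Trem2KO cells Lat2 stood at 169, 160.3 and 163 CPM without and at 163, 162, 162 and 166 CPM with cholesterol. All Trem2KO libraries lay above all WT libraries, and the log2 fold change was 0.34 (s.e. 0.06, edgeR adjusted p = 9.57e-05) in non-foamy and 0.31 (s.e. 0.06, edgeR adjusted p = 0.000201) in foamy cells. Lat2 lies in reverse at chr5:134600022-134615025, where 952 bases (36.3%) of its exonic length are shared with Rfc2 on the opposite strand, and whether counting used strand is not given in the sources used here. Rfc2, a subunit of replication factor C, had log2 fold changes of -0.12 (s.e. 0.06, edgeR adjusted p = 0.124) and -0.03 (s.e. 0.06, edgeR adjusted p = 0.698), below 0 where Lat2 was above it.

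Plcg2 encodes the phospholipase that makes inositol trisphosphate and diacylglycerol. It ranged from 108 to 158 CPM in WT non-foamy, 123 to 158 CPM in WT foamy, 118 to 126 CPM in Trem2KO non-foamy and 99.9 to 133 CPM in Trem2KO foamy libraries, with overlap in both treatments. Its log2 fold changes were -0.19 (s.e. 0.11, edgeR adjusted p = 0.159) in non-foamy and -0.22 (s.e. 0.10, edgeR adjusted p = 0.0977) in foamy cells. They passed the threshold without WT non-foamy replicate 3 (-0.29, edgeR adjusted p = 0.00932) and without WT foamy replicate 3 (-0.28, edgeR adjusted p = 0.0415), respectively, and shrank to -0.12 (edgeR adjusted p = 0.402) without WT non-foamy replicate 4 and to -0.14 (edgeR adjusted p = 0.315) without Trem2KO foamy replicate 4. Without a filter on low counts Plcg2 was called lower in both treatments (-0.20 and -0.23, edgeR adjusted p = 0.0344 and 0.00734). Vav1, an exchange factor for small GTPases, ranged from 56.2 to 74.4 CPM, 64.7 to 81.0 CPM, 60.3 to 69.6 CPM and 52.8 to 70.03 CPM in the same 4 groups. Its log2 fold changes were -0.07 (s.e. 0.10, edgeR adjusted p = 0.618) and -0.21 (s.e. 0.09, edgeR adjusted p = 0.0873). The latter passed without WT foamy replicate 3 (-0.26, edgeR adjusted p = 0.0420) or Trem2KO foamy replicate 2 (-0.27, edgeR adjusted p = 0.0410) and without a filter on low counts (-0.22, edgeR adjusted p = 0.0218), and shrank to -0.14 (edgeR adjusted p = 0.285) without Trem2KO foamy replicate 4.

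Inpp5d, the inhibitor of the set, was not called in either comparison. It was counted at 76.8, 77.8, 62.9 and 79.4 CPM in WT non-foamy and at 79.4, 81.7 and 84.8 CPM in Trem2KO non-foamy libraries, where the highest WT library lay just under the lowest Trem2KO library. With cholesterol it stood at 94.96, 82.4, 67.1 and 77.3 CPM in WT and at 76.6, 75.3, 78.3 and 62.7 CPM in Trem2KO libraries, which overlapped. The log2 fold change was 0.14 (s.e. 0.10, edgeR adjusted p = 0.261) in non-foamy and -0.14 (s.e. 0.09, edgeR adjusted p = 0.287) in foamy cells. The first was 0.07 (edgeR adjusted p = 0.558) without WT non-foamy replicate 3, and the second was -0.05 (edgeR adjusted p = 0.752) without WT foamy replicate 1, -0.07 (adjusted p = 0.641) without Trem2KO foamy replicate 4 and -0.22 (adjusted p = 0.0710) without WT foamy replicate 3.

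Of the proteases, Adam17 was higher in Trem2KO cells and Adam10 was not called. Adam17 was counted at 245, 242, 267 and 238 CPM in WT non-foamy and at 257, 265, 265 and 251 CPM in WT foamy libraries. In Trem2KO cells it stood at 314, 329 and 324 CPM without and at 317, 299, 313 and 329 CPM with cholesterol. Each of these 7 libraries lay above the 8 WT libraries, and the log2 fold change was 0.38 (s.e. 0.06, edgeR adjusted p = 1.6e-05) in non-foamy and 0.28 (s.e. 0.06, edgeR adjusted p = 0.000506) in foamy cells. Adam17 lies in reverse at chr12:21323509-21373632 and shares 311 bases (4.35%) of its exonic length with Iah1 on the opposite strand. Iah1 was not called but was above 0, as Adam17 was. Its log2 fold changes were 0.17 (s.e. 0.09, edgeR adjusted p = 0.115) in non-foamy and 0.16 (s.e. 0.08, edgeR adjusted p = 0.127) in foamy cells. Adam10 ranged from 83.3 to 97.5 CPM, 91.1 to 101 CPM, 97.8 to 99.96 CPM and 91.7 to 103 CPM in WT non-foamy, WT foamy, Trem2KO non-foamy and Trem2KO foamy libraries. Its non-foamy ranges did not overlap, but the log2 fold changes were 0.09 (s.e. 0.06, edgeR adjusted p = 0.292) and 0.01 (s.e. 0.06, edgeR adjusted p = 0.927), and the first was 0.04 (edgeR adjusted p = 0.625) without WT non-foamy replicate 3.

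Counted together, 5 of the 10 genes were called in each treatment. These were Trem2, which was lower, and Tyrobp, Syk, Lat2 and Adam17, which were higher in Trem2KO cells. Of all genes tested, 43.6% were called in non-foamy and 30.2% in foamy cells, so the members' share of non-foamy calls was near the background. In non-foamy cells 4 of the 10 were higher, against 21% of all genes, and 1 was lower, against 22.6%. In foamy cells the same counts stood against 14.3% higher and 15.9% lower. WT and Trem2KO libraries did not overlap for 7 of the 10 genes in non-foamy cells, against 46.1% of all genes, and for 4 of the 10 in foamy cells, against 28.8%. The median log2 fold change of the 10 genes was 0.24 in non-foamy and 0.13 in foamy cells, beside medians over all genes of 0.02 and 0.00033. Scaling by total counts alone moved the medians over all genes to -0.13 in both treatments and took Adam10 below 0 in both and Inpp5d below 0 in non-foamy cells, while none of these 3 values was called under either scaling. In foamy cells that scaling ended the Syk call and called Plcg2 (-0.35, edgeR adjusted p = 0.0453) and Vav1 (-0.34, edgeR adjusted p = 0.0364) lower, so 6 of the 10 were called there, 3 higher and 3 lower. The comparisons in the 2 treatments share no library.

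**Figure D3:**
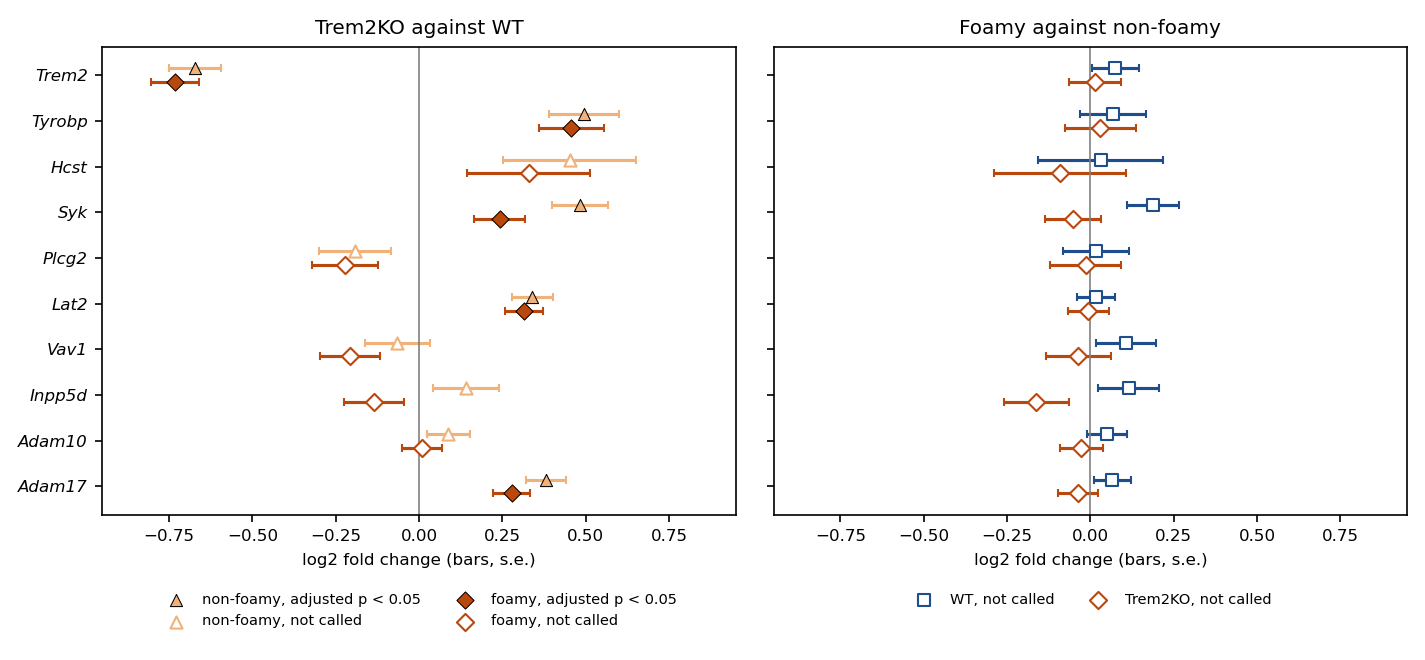
log2 fold change with s.e. from edgeR for each of the 10 genes, Trem2KO against WT on the left and foamy against non-foamy on the right; filled symbols were called at an adjusted p under 0.05. The left panel holds 5 filled genes in each treatment and the right panel holds none.

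Cholesterol moved none of the 10 genes past the threshold. In WT cells 0 of 10 were called by edgeR, where 2.8% of all genes were called, and 1 of the 10 had an unadjusted p under 0.05. This was Syk, at 75.0 ± 6.03 CPM without and 85.6 ± 10.2 CPM with cholesterol (SD, n = 4 each), with a log2 fold change of 0.19 (s.e. 0.08, edgeR adjusted p = 0.213), which fell to 0.10 (edgeR adjusted p = 0.571) without WT foamy replicate 1. In Trem2KO cells 0 of 10 were called, against 0.14% of all genes, and 0 had an unadjusted p under 0.05. DESeq2 called 0 of the 10 in both. Foamy and non-foamy libraries stood apart without overlap for 0 of 10 genes in WT cells, against 9.71% of all genes, and for 1 of 10 in Trem2KO cells, against 9.26%. That gene was Inpp5d, at 82.0 ± 2.72 CPM without (n = 3) and 73.2 ± 7.13 CPM with cholesterol (n = 4), and its log2 fold change of -0.16 (s.e. 0.10, edgeR adjusted p = 0.835) was not called and fell to -0.09 (edgeR adjusted p = 0.859) without Trem2KO foamy replicate 4.

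The absolute log2 fold change of the members with cholesterol had a median of 0.07 in WT and 0.03 in Trem2KO cells, beside 0.12 and 0.10 over all genes. The receptor itself had log2 fold changes of 0.08 (s.e. 0.07, edgeR adjusted p = 0.658) in WT and 0.01 (s.e. 0.08, edgeR adjusted p = 0.989) in Trem2KO cells. Tyrobp had 0.07 (s.e. 0.10, edgeR adjusted p = 0.794) and 0.03 (s.e. 0.11, edgeR adjusted p = 0.984). The difference between the responses was called for 0 of the 10 genes, against 3.64% of all genes. The 2 lowest p-values belonged to the kinase and the inhibitor. Syk had a difference of -0.24 on the log2 scale (s.e. 0.11, edgeR adjusted p = 0.277) and Inpp5d one of -0.28 (s.e. 0.13, edgeR adjusted p = 0.293), with 1 of the 10 genes, Syk, at an unadjusted p under 0.05. Without WT foamy replicate 1 the Syk value was -0.16 (edgeR adjusted p = 0.480).

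Ratios of read counts within a library do not depend on how libraries are scaled, and 4 were compared between genotypes by an exact two-sided permutation test within treatments (2450 arrangements, smallest possible p = 0.000408), adjusted over the 4. Receptor to adaptor, Trem2/Tyrobp, had log2 values of -1.93 to -1.70 in WT non-foamy and -1.89 to -1.71 in WT foamy libraries, and of -3.01 to -2.94 and -3.03 to -2.93 in the Trem2KO libraries. That is 3.24 to 3.82 Tyrobp reads per Trem2 read in WT non-foamy and 7.65 to 8.08 in Trem2KO non-foamy cells. The groups stood wide apart, and the ratio was 2.27-fold lower in Trem2KO cells (log2 difference -1.19, exact permutation adjusted p = 0.000816). The ratio of the adaptors to each other was not separated by genotype. Hcst/Tyrobp differed by -0.10 on the log2 scale (exact permutation p = 0.350, adjusted p = 0.350), with overlapping libraries.

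Inhibitor to kinase, Inpp5d/Syk, had log2 values of -0.076 to 0.036 in WT non-foamy, -0.23 to -0.020 in WT foamy, -0.41 to -0.32 in Trem2KO non-foamy and -0.54 to -0.38 in Trem2KO foamy libraries. Every Trem2KO library lay below every WT library, and the difference was -0.36 (exact permutation adjusted p = 0.000816). Adam17/Adam10 stood at 1.28 to 1.68, 1.35 to 1.54, 1.65 to 1.75 and 1.62 to 1.77 in the same order of groups. Here WT non-foamy replicate 3, at 1.68, overlapped the Trem2KO libraries, and the difference was 0.28 (exact permutation adjusted p = 0.00272). With the non-foamy libraries alone, 4 against 3, no p under 0.0286 is possible and the adjusted p was 0.0571 for Trem2/Tyrobp and for Inpp5d/Syk and 0.114 for Adam17/Adam10 (exact permutation test).

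**Figure D4:**
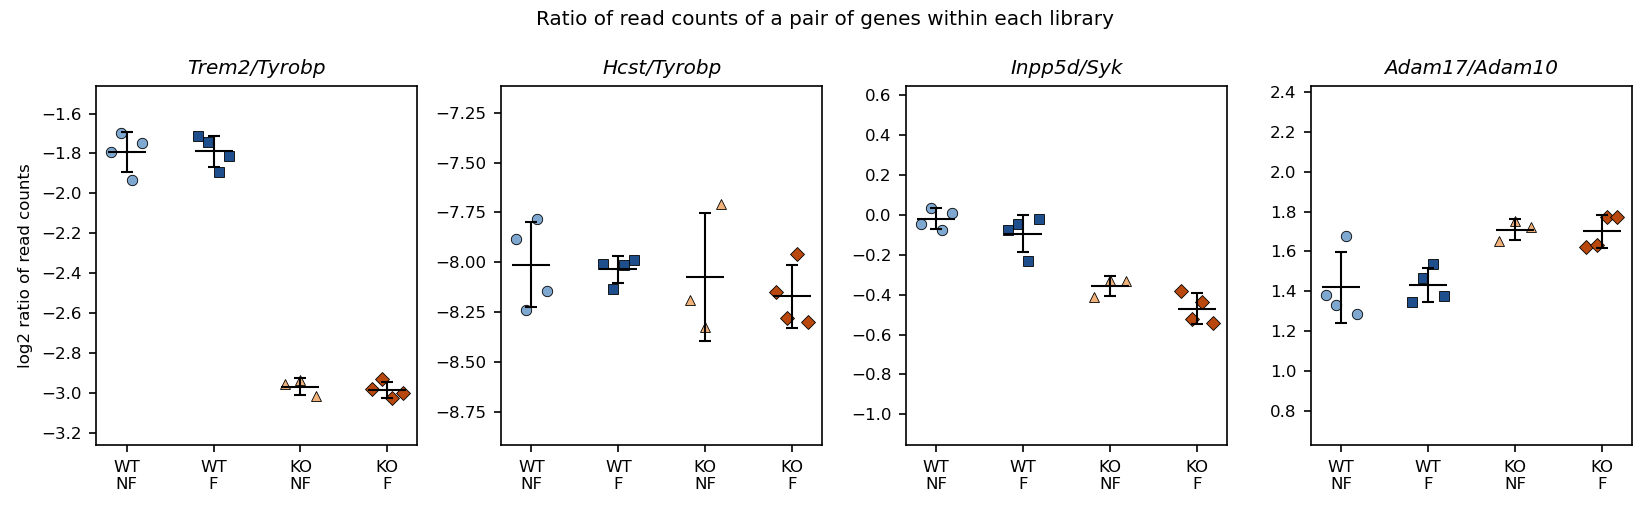
log2 ratio of read counts of 4 pairs of genes in each library by group, with mean and SD; all panels span the same range of log2 units. Trem2/Tyrobp and Inpp5d/Syk are lower in all 7 Trem2KO libraries than in all 8 WT libraries, Adam17/Adam10 overlaps through 1 WT non-foamy library, and Hcst/Tyrobp overlaps throughout.

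The genes whose log2 CPM followed Trem2 most closely over the 15 libraries were Polr2e, a shared subunit of RNA polymerases (r = 0.982), Arl6ip1 (r = 0.979), Tmsb10, an actin-binding thymosin (r = 0.976), C430042M11Rik (r = 0.971) and Mr1, which presents metabolites to T cells (r = 0.970). Those most like Tyrobp were Snhg8 (r = 0.987), the ribosomal protein gene Rps18 (r = 0.987), Chchd5 (r = 0.987), Cst3, which encodes cystatin C (r = 0.987), and Rpl15, another ribosomal protein gene (r = 0.984). Of 11707 genes compared, 275 had r over 0.9 with Trem2 and 427 with Tyrobp, and the points share their genotype groups and their libraries. Within groups, after the group means were taken off, r was 0.5005 to 0.808 for the 5 genes with Trem2 and 0.964 to 0.982 for the 5 others with Tyrobp. The genes were picked on these same libraries, so the values within groups are not a separate check. Trem2 and Tyrobp themselves had r of 0.954 within groups and -0.71 over all 15 libraries.

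The other genes of the pathway were 106 genes in 10 lists, of which 92 were tested. Trem2KO against WT called 53 of the 92 in non-foamy cells (35 higher and 18 lower, 57.6%) and 40 in foamy cells (26 higher and 14 lower, 43.5%). Of all genes, 43.6% were called in non-foamy cells (21% higher and 22.6% lower) and 30.2% in foamy cells (14.3% higher and 15.9% lower). The list counts below are to be read beside these shares. Cholesterol called 6 of the 92 in WT cells by edgeR, all higher (6.52%, against 2.8% of all genes), and 0 in Trem2KO cells, against 0.14% of all genes. The difference between the responses was called for 10 of the 92 (2 above 0 and 8 below, 10.9%), against 3.64% of all genes. Genes named below for the size of their change, and called in both treatments, all moved less in foamy than in non-foamy cells.

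Receptors that share an adaptor with Trem2 moved in both directions. Of 9 tested, 5 were higher and 2 lower in non-foamy Trem2KO cells, and 4 were higher and 2 lower in foamy cells. Pilrb1, a DAP12-coupled receptor, stood at 4.34 ± 0.138 CPM in WT and 1.02 ± 0.353 CPM in Trem2KO non-foamy cells (log2 fold change -2.09, s.e. 0.22, edgeR adjusted p = 6.24e-08). Sirpb1b rose from 1.66 ± 0.530 to 5.04 ± 0.674 CPM (1.63, s.e. 0.22, edgeR adjusted p = 1.85e-06) and Sirpb1c from 2.29 ± 0.683 to 6.60 ± 1.26 CPM (1.56, s.e. 0.24, edgeR adjusted p = 1.73e-05), but these are near-identical copies whose reads may be split. Trem1 and Trem3, chosen after their values were seen, were the 2 of 4 tested TREM relatives called lower in non-foamy cells, at levels under 2 CPM.

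Of 6 tested ligands, 3 were higher and 1 lower in non-foamy Trem2KO cells, and 3 were higher in foamy cells. Apoe, which encodes an apolipoprotein that Trem2 binds, stood at 1771 ± 127 CPM in WT and 4122 ± 319 CPM in Trem2KO non-foamy cells (1.22, s.e. 0.07, edgeR adjusted p = 1.38e-11). It rose with cholesterol in WT cells (0.31, s.e. 0.07, edgeR adjusted p = 0.0131). In Trem2KO cells its response was -0.13 (s.e. 0.07, edgeR adjusted p = 0.815), and the difference between the responses was -0.45 (edgeR adjusted p = 0.0155). Clu, which encodes clusterin, and Lgals3, which encodes galectin 3, were higher in Trem2KO non-foamy cells by 0.67 each (edgeR adjusted p = 1.23e-08 and 2.04e-06). The ligand that was lower was Hspd1, a mitochondrial chaperone (-0.45, edgeR adjusted p = 1.47e-05), named after its value was seen.

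Among 12 adaptors and effectors near Syk, 6 were higher and 1 lower in non-foamy and 4 higher and 1 lower in foamy Trem2KO cells. Blnk, the scaffold that brings Plcg2 to Syk, stood at 33.2 ± 2.09 CPM in WT and 79.4 ± 0.766 CPM in Trem2KO non-foamy cells (1.26, s.e. 0.07, edgeR adjusted p = 2.09e-12). It also rose with cholesterol in WT cells (0.47, s.e. 0.06, edgeR adjusted p = 0.000144), unlike Plcg2 itself. In foamy cells the Blnk value was 0.75 (s.e. 0.06, edgeR adjusted p = 5.71e-09). Its responses to cholesterol differed between genotypes (-0.51, edgeR adjusted p = 0.0027). In non-foamy cells Grb2, an adaptor to Ras, was higher by 0.89 and Lcp2, the scaffold SLP-76, was lower at -0.91 (edgeR adjusted p = 4.43e-10 and 1.17e-07). Their foamy values were 0.49 and -0.70 (edgeR adjusted p = 2.54e-06 and 3.58e-06). The Grb2 responses to cholesterol differed between genotypes (-0.39, edgeR adjusted p = 0.0190).

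Of 10 negative regulators, 5 were higher and 2 lower in non-foamy and 4 higher and 2 lower in foamy cells. The adaptor Dok2 (-1.21, edgeR adjusted p = 2.7e-08) and the phosphatase SHP-1, Ptpn6 (-0.51, edgeR adjusted p = 5.76e-06), were lower in non-foamy cells, and the ubiquitin ligase Cblb was higher (1.02, edgeR adjusted p = 2e-05). Of 4 Src family kinases, Src was higher (0.83, edgeR adjusted p = 4.74e-05) and Lyn lower (-0.36, edgeR adjusted p = 5.08e-05) in non-foamy cells, both named after their values were seen, and in foamy cells 0 of the 4 were called. The PI3K-Akt-mTOR list had 5 higher and 4 lower of 18 in non-foamy and 1 higher and 4 lower in foamy cells, with Ctnnb1 higher (0.54) and Pik3cg and Pik3r2 lower (-0.48 and -0.36) in non-foamy cells. The calcium and protein kinase C list had 4 higher and 4 lower of 15 in each treatment, including Prkcd (0.68), Itpr2 (0.91) and Itpr3 (-0.49) in non-foamy cells.

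Of 7 tested genes listed as partners of the sheddases, 2 were higher and 1 lower in non-foamy and 2 higher in foamy Trem2KO cells. The listed inhibitor Timp3 was at 0 counts in all libraries and was not tested. Tspan10, a tetraspanin that accompanies Adam10, rose from 8.35 ± 0.895 to 43.1 ± 3.08 CPM in non-foamy cells (2.37, s.e. 0.10, edgeR adjusted p = 2.86e-14), while Adam10 itself was not called. In foamy cells the Tspan10 value was 1.42 (s.e. 0.09, edgeR adjusted p = 7.08e-11). Its responses to cholesterol differed between genotypes (-0.95, edgeR adjusted p = 0.000141). The gene that was lower was Tspan5 (-0.28, edgeR adjusted p = 0.0247), named after its value was seen. Of 7 gamma-secretase genes, which encode the enzyme that cuts the stub left by the sheddases, 4 were higher and 0 lower in each treatment. Aph1b, Aph1c and Psenen were called in both, joined by Ncstn in non-foamy (0.24) and by Aph1a in foamy cells (0.27), these last named after their values were seen. In non-foamy cells Psenen was higher by 0.54 (s.e. 0.08, edgeR adjusted p = 1.04e-05) and Aph1c by 1.43 (s.e. 0.08, edgeR adjusted p = 3.99e-12), but Aph1b and Aph1c are near-identical and their reads may be split. In foamy cells the values were 0.38 for Psenen and 0.89 for Aph1c. The Aph1c responses to cholesterol differed between genotypes (-0.54, edgeR adjusted p = 0.00704). All lists were chosen with earlier results of these data known, and their counts are read beside the 43.6% and 30.2% of all genes that were called.

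**Figure D5:**
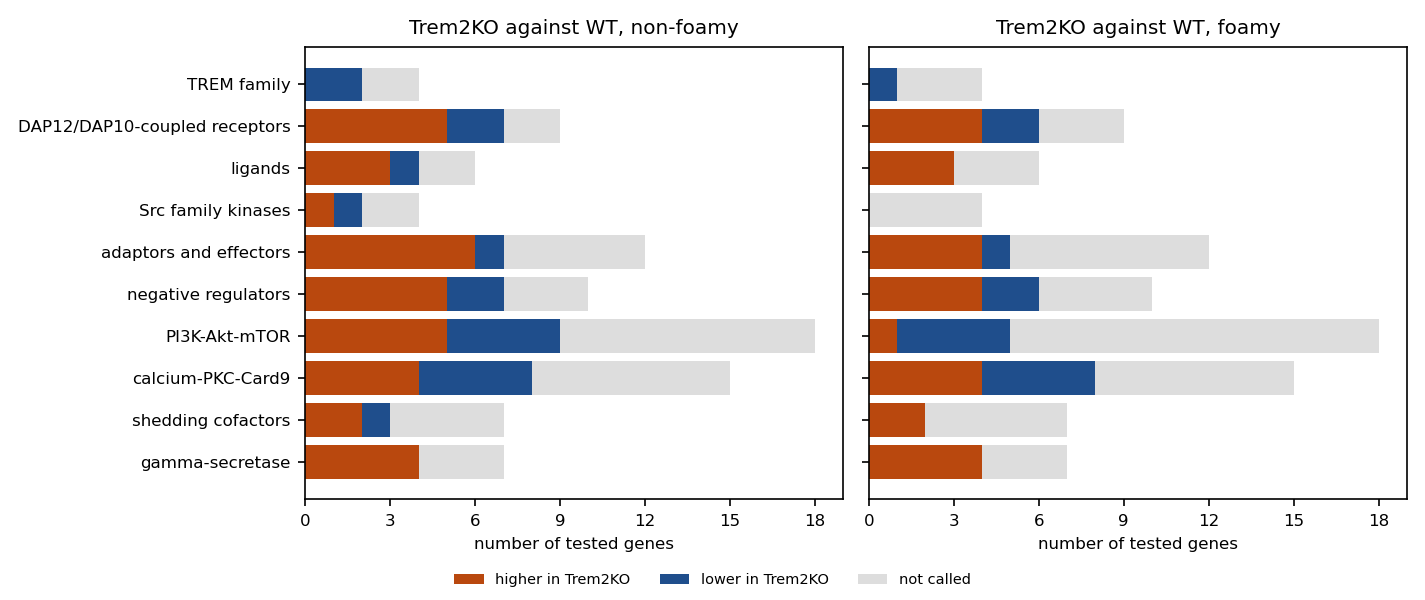
Number of tested genes in each of the 10 pathway lists that were called higher, called lower or not called (edgeR adjusted p under 0.05) in Trem2KO against WT, for non-foamy cells on the left and foamy cells on the right. Gamma-secretase genes are called higher alone, 4 of 7 in each panel, while the calcium list holds 4 higher and 4 lower in each panel. Of all genes tested, 21% were called higher and 22.6% lower in non-foamy cells, and 14.3% and 15.9% in foamy cells.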

How the data were processed

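RNA was sequenced from 15 BV2 libraries. The authors deposited raw read counts per gene, without normalization; the methods name Trimmomatic, HISAT2 with GRCm38 and featureCounts within CHURP. Strand and multi-mapping settings are not given in the sources used here. Genes kept by filterByExpr (minimum count 10) numbered 14237 and held 99.965% of counts. All libraries were fitted with 1 mean per group by the quasi-likelihood test of edgeR 4.0.16 (R 4.3.3) after TMM scaling, with Benjamini-Hochberg adjusted p under 0.05 called. CPM are TMM scaled, and s.e. is the absolute log2 fold change divided by the square root of the quasi-likelihood F statistic. The fits and the permutation test were tested on simulated data. Alternatives were DESeq2 1.42.0, other scalings and filters, the compared libraries alone, a replicate block and leaving out each library; trends on length and GC content and lengths of coding transcripts were added after seeing the data. Annotation was GENCODE M21. Total depth was 23538963 to 41683825 counts, and counting error covers only part of the spread. The labels do not say that libraries came from separate cultures, so p-values measure the spread between these libraries, which may be technical. No 2 libraries agreed within sampling noise (chi-square per gene 5.95 to 45.2 over 21 pairs). Named were the 10 members, up to 3 genes per list called in both treatments with the largest change and a mean of at least 1 CPM, and the 5 genes most like Trem2 and Tyrobp. Members and lists were chosen with earlier results of these data known. The levels of some marker genes are not reported here.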

Additional observations from a re-analysis of the deposited data

Results flagged for a closer look

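In 5 of 42 sets of 4 libraries, a library stood apart from the rest of its group by Dixon's test at the 95% level, which chance gives in about 1 set in 20. Tyrobp stood at 1582.5 CPM and Inpp5d at 62.89 CPM in WT non-foamy replicate 3, the library with the fewest reads. Trem2 stood at 217.57 CPM in Trem2KO foamy replicate 3, below 226 to 227 CPM in the other 3. Lat2 stood at 166.34 CPM in Trem2KO foamy replicate 4, above 162 to 163 CPM. The log2 ratio of Hcst to Tyrobp was -8.13 in WT foamy replicate 2, the lowest of its group.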

How the results depend on the processing

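Of 890 recomputed values for the 10 genes, 838 kept their direction and side of the threshold, 5 lost a call, 15 gained one and 32 changed sign. Trem2, Tyrobp, Lat2 and Adam17 were called in both treatments, and Syk in non-foamy cells, under all alternatives run. No gene of the 10 was called in either response or in their difference under any alternative. The count of all genes called was less stable. In the WT response (399) it was 860 with DESeq2, 607 without a filter, 144 with the compared libraries alone, 1083 with length and GC trends removed and 146 to 526 with 1 library left out. In the Trem2KO response (20) it was 62, 61 and 50 with DESeq2, no filter and trends removed, and 10 to 18 with 1 library left out. In the difference (518) it was 983 with DESeq2, 1279 with trends removed and 201 to 661 with 1 library left out. Replicate numbers did not pair the libraries (correlations of same-numbered libraries -0.25 to 0.47, and 2 of 4, 1 of 4, 1 of 3 and 0 of 3 libraries correlated best with their own number); a replicate block gave 294 genes for the difference, and with trends removed as well 1046, 40 and 1088 genes for the WT response, the Trem2KO response and the difference. Under the replicate block the Lat2 response in Trem2KO cells became 0.0034, and Hcst passed in non-foamy cells (0.42, edgeR adjusted p = 0.0349), as it did without a filter (0.45) and with trends removed (0.41). Total counts alone gave 0.0016 for that Lat2 response, -0.0035 for Inpp5d and -0.057 for Adam10 in non-foamy and -0.12 for Adam10 in foamy cells, where no filter gave -0.00054. With 1 library left out, responses in WT cells ranged from -0.011 to 0.21 for Tyrobp, -0.076 to 0.25 for Hcst, -0.086 to 0.084 for Plcg2 and -0.018 to 0.071 for Lat2. Those in Trem2KO cells ranged from -0.011 to 0.046 for Trem2, -0.011 to 0.054 for Tyrobp, -0.24 to 0.13 for Hcst, -0.066 to 0.065 for Plcg2, -0.023 to 0.016 for Lat2 and -0.094 to 0.036 for Vav1. Adam10 in foamy cells ranged from -0.021 to 0.034. The differences ranged from -0.18 to 0.034 for Tyrobp, -0.34 to 0.10 for Hcst, -0.098 to 0.072 for Plcg2 and -0.078 to 0.011 for Lat2. Ratios in non-foamy libraries alone were -1.18 for Trem2/Tyrobp, -0.34 for Inpp5d/Syk and 0.29 for Adam17/Adam10, with exact permutation adjusted p = 0.0571, 0.0571 and 0.114. Why values moved was not tested, except that the design with non-foamy libraries alone holds 7 libraries. Hcst had the fewest reads of the 10 genes, at 115 to 257 per library.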
